A study of Drosophila melanogaster with 24 samples.

Results

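Male and female flies of the High selection group were compared here. The group holds 8 of the 24 arrays of the series, 4 from males and 4 from females, and every array that GEO labels as High was used. The flies came from a base population of wild-caught Drosophila melanogaster on which artificial selection for high or for low locomotor reactivity was applied for 25 generations, with unselected Control lines kept beside them. The labels name no other genotype or treatment. Locomotor reactivity is the activity of a fly in the seconds after a mechanical disturbance. There were 2 High lines (1 and 2), each with 2 male and 2 female arrays, and the Control and Low groups had the same layout. All flies were virgin adults 3 to 7 days old, and each array held total RNA of a pool of flies of 1 sex and 1 line, with no dissection described, hybridised to an Affymetrix Drosophila GeneChip 2.0. Each line was kept as a population of its own, so the 2 lines of a group are the replicates of selection and the 2 arrays of a line and sex are replicate pools.

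In Drosophila the sexes differ in transcript abundance mainly through the gonads and the reproductive tract. Females carry ovaries, which fill much of the abdomen and hold nurse cells, follicle cells and growing oocytes, and their fat body secretes yolk protein. Males carry testes, in which spermatocytes and spermatids transcribe many genes used nowhere else, and accessory glands and an ejaculatory bulb that make the seminal fluid. Splicing of the Sex-lethal, transformer and doublesex transcripts sets somatic sex, and a ribonucleoprotein complex that includes MSL-2 raises transcription from the single X chromosome of males. In RNA of adult flies, fewer cells of a type and less RNA per cell cannot be told apart.

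Each value below is a Signal, the abundance estimate that the MAS5 software gives for a probe set (the group of short probes for 1 transcript), on a scale fixed by each array's trimmed mean. The trimmed mean lay between 495.3 and 497.9 on all 24 arrays. The median Signal of all 18769 probe sets was 98 to 116.8 on the 4 High female arrays and 145.1 to 152.6 on the 4 High male arrays, and 9876 to 10640 probe sets reached a Signal of 75 in the females against 11225 to 11458 in the males. The 2 arrays of a High line and sex correlated across the tested probe sets at 0.969 to 0.982 (log2 Signal; genes are not independent replicates), and the Control and Low arrays gave 0.969 to 0.985. A probe set was tested if its median Signal over the 24 arrays was at least 75, which 11439 of 18769 were. A sex difference is the mean log2(Signal) of males minus that of females, fitted with line as a covariate by limma, given ± its standard error with 4 arrays a sex, and called when the Benjamini-Hochberg adjusted p over all tested probe sets was below 0.001. Nothing in the sources used here says that the replicate pools of a line were reared apart, so p-values measure the spread between these pools.

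Sex accounted for differences over much of the array. Of the 11439 probe sets, 4307 differed between High males and High females (37.7%), 1770 of them higher in males (15.5%) and 2537 higher in females (22.2%). The male-higher differences were large, with a median size of 5.02 on the log2 scale, and 1168 of the 1770 were at least 16-fold. The female-higher ones were more numerous and smaller, with a median size of 1.20, and 101 of the 2537 reached 16-fold whereas 869 were below 2-fold. With every Signal below 75 raised to 75 the median sizes were 2.79 and 1.18, and 381 of the male-higher and 46 of the female-higher ones reached 16-fold. On 1284 of the 1770 male-higher probe sets (72.5%) all 4 female arrays were below a Signal of 75, and on 190 of the 2537 female-higher ones (7.49%) all 4 male arrays were. A Signal below 75 was treated as not measured, and these genes are given below as at least so far above a floor of 75. A probe set of this kind entered the test only through the sex in which it was high. In the 2 High lines all 4307 called differences had the same sign. They were called from these same 2 lines, so this agreement is no separate support. The share over all tested probe sets was not counted. Over all tested probe sets the median difference was -0.20, and centring every array on its median before the fit moved it to -0.12, with 1819 male-higher and 2236 female-higher calls, so the direction of a difference near 0 depends on the scaling.

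**Figure D1:**
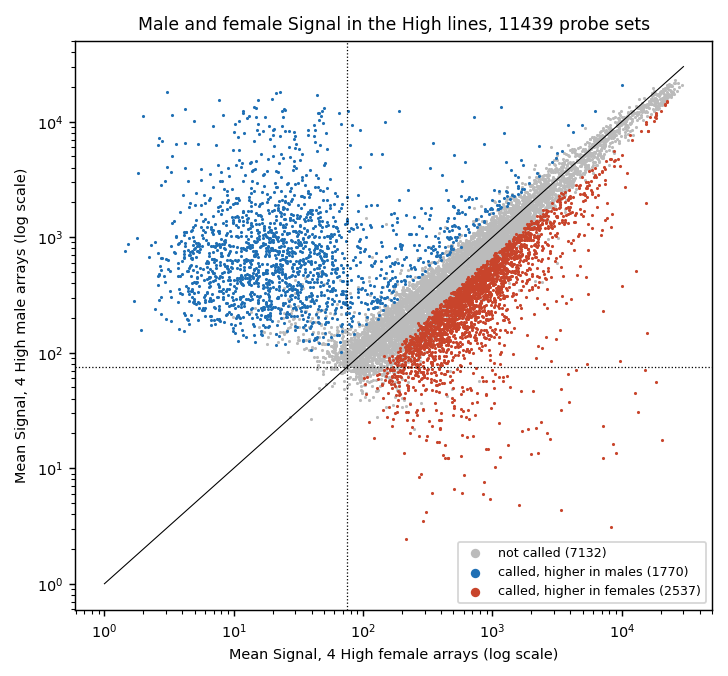
Mean Signal of each of the 11439 tested probe sets in the 4 High female arrays (x axis) and the 4 High male arrays (y axis), both log scales, coloured by whether the sex difference was called at an adjusted p below 0.001; dotted lines mark a Signal of 75 and the solid line equality. The 1770 male-higher probe sets form a cloud at low female Signal, while most of the 2537 female-higher ones lie close to the line.

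The transcripts that set or report sex followed the labels on all 8 arrays. Yp1, which encodes a yolk protein, gave Signals of 20362, 19696, 23054 and 19304 on the 4 female arrays (line 1, line 1, line 2, line 2, the order used throughout) and 13.5, 44.3, 10.9 and 2.1 on the male ones, a difference of at least 8.10 against the floor of 75. The switch gene transformer (tra) was higher in females, with 588, 635, 613 and 539.7 in females and 244, 317, 296 and 262 in males, and the groups did not overlap. Male minus female was -1.09 ± 0.12 (adjusted p = 0.000113) for tra. For doublesex (dsx), the last gene of that cascade and one whose transcript is spliced differently in the sexes, the array carries 2 probe sets, and they went opposite ways. The first read 495, 463, 522 and 493 in females and 50.6, 50.7, 53 and 45.4 in males, a difference of at least 2.72 against the floor (adjusted p = 1.9e-07). The second read 66.9, 54.2, 67.5 and 56.8 in females and 477, 447, 496 and 533 in males, a difference of 3.00 ± 0.11 (adjusted p = 5.49e-07). The files do not say which exon each covers.

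Sex-lethal (Sxl), the head of the cascade, was not called. Its brightest probe set gave -0.56 ± 0.13 (adjusted p = 0.00729) and another of its 3 probe sets gave 0.53 ± 0.13 (adjusted p = 0.00686). Of 10 sex-determination genes tested 4 were called, all higher in females, and these were tra, the first dsx probe set, and ovo and otu, which act in the female germ line. Of all genes tested 23.3% were called higher in females and 16.9% higher in males, and lists this short cannot be told from those shares by their counts. Among 8 dosage-compensation genes 1 was called higher in males and 3 higher in females. The male-higher one was msl-2, whose protein females repress, with 347, 261, 306 and 296 in males and 160.4, 144, 99.2 and 143 in females, a difference of 1.16 ± 0.16 (adjusted p = 0.000483). Unr, an RNA-binding protein that takes part in repressing msl-2 in females, was higher in females, with male minus female -0.89 ± 0.096 (adjusted p = 0.000127). The X-chromosome binding protein Clamp gave -0.83 ± 0.12 and msl-1, the partner of MSL-2, gave -0.97 ± 0.15, both higher in females. For fruitless (fru), which controls courtship, the difference was 0.27 ± 0.13 (adjusted p = 0.119).

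**Figure D2:**
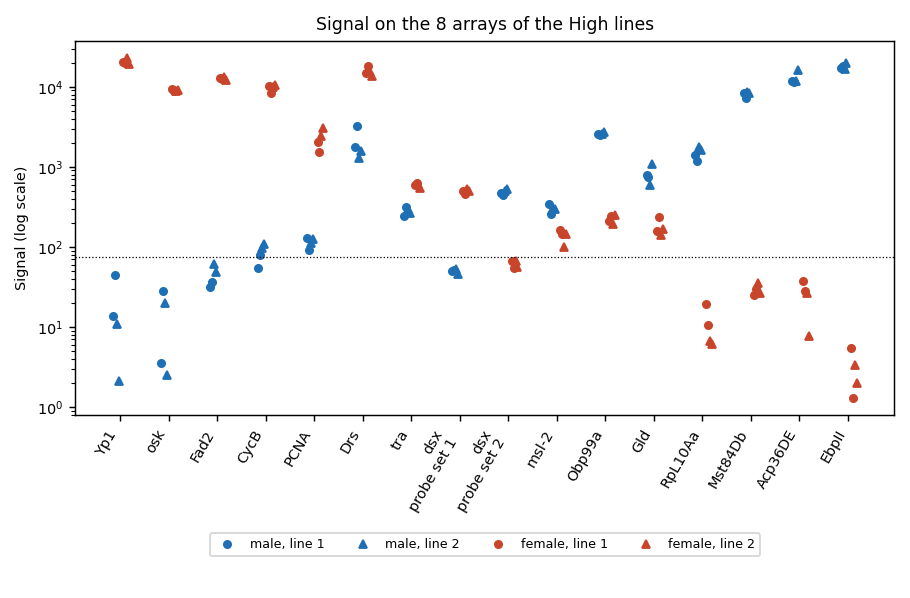
Signal (log scale) of 15 genes on each of the 8 High arrays, males in blue and females in red, circles for line 1 and triangles for line 2; doublesex has a column for each of its 2 probe sets, and the dotted line marks a Signal of 75. The sexes do not overlap in any column, and the 2 dsx probe sets are mirror images, near 500 in one sex and near 50 in the other.

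Genes of egg formation led the female-limited ones. Of 3 yolk protein genes all 3 were higher in females, where 23.3% of all 9470 genes tested were (1 probe set a gene). The third, Yp3, stayed measurable in males at 92.8, 176, 178 and 142 and read 15972, 12688, 19186 and 15198 in females, a difference of -6.77 ± 0.22 (adjusted p = 3.21e-07). In the eggshell list 9 of 20 genes passed the filter on low Signal, and 7 of the 9 were higher in females. The vitelline membrane genes Vm26Aa and Vm34Ca were uneven among the females. Vm34Ca read 18513, 4393, 20994 and 9547 in females and 28.4, 49.9, 33.8 and 11.7 in males, and Vm26Aa read 14159, 2780.1, 12491 and 4994 in females, so in both lines the second replicate was the lower one. Both were still at least 6.55 (Vm26Aa) and 7.24 (Vm34Ca) on the log2 scale above the floor. The genes fs(1)N and closca (clos), also needed for the vitelline membrane, were steadier, with 1134, 909.7, 949.7 and 1094 for fs(1)N in females and male minus female differences of -4.39 ± 0.16 for fs(1)N and -3.53 ± 0.15 for clos.

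The oocyte list held 15 female-higher and 2 male-higher genes among 20 tested, with a median difference of -2.58 where all genes gave -0.20. Over all genes tested 23.3% were called higher in females and 16.9% higher in males. The germ plasm organiser oskar (osk) read 9328, 8955, 8973 and 9012 in females and 3.5, 27.8, 20.1 and 2.5 in males, at least 121-fold above the floor. The posterior determinant nanos read 3712, 1931, 4407 and 5633 in females, with a male range of 19.9 to 57.7. The translational regulator orb read 2820.0, 2444, 2676 and 2720.4 in females, and gnu, needed for the first embryonic divisions, read 2609, 2594, 2756 and 3280.2. Both were below 75 on every male array. matrimony (mtrm), an inhibitor of Polo kinase in the oocyte, was at least 44.5-fold above the floor. Neither mtrm nor nanos is a member of the oocyte list. BicC, an RNA-binding protein of the ovary, gave a male minus female difference of -3.23 ± 0.14. The 2 male-higher genes were capu and exuperantia (exu), the second of which localises RNA in the oocyte and is also needed for sperm formation. One probe set of exu read 7924, 6858, 7296 and 6514 in males and 49.3, 9.7, 18.2 and 38.8 in females, at least 6.57 above the floor (adjusted p = 6.38e-06). The other one gave 0.41 ± 0.26 (adjusted p = 0.189), so the 2 probe sets of this gene disagree in size.

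Of the 10 female-limited genes of highest Signal 3 were CG43074, CG14545 and CG43090, which carry no gene name that tells a role. CG43074 gave 9489, 9186, 6822 and 7250.0 in females and at most 4.5 in males. CG43090 separated the lines, with 2038, 1120.5, 5306 and 5061 in females, so that line 2 was above line 1 while every male array was at most 9.7.

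DNA replication, cell cycle and germ-line silencing genes were higher in females almost throughout. Of 36 DNA replication genes 31 were higher in females and none in males, with a median of -2.34, and on 34 of the 36 all 4 females lay above all 4 males, which held for 38.9% of all probe sets. PCNA, the sliding clamp, read 2039.9, 1525, 2431 and 3083 in females and 129, 91.9, 113 and 127 in males, a difference of -4.27 ± 0.18 (adjusted p = 1.21e-06). The helicase subunit Mcm6 gave -3.09 ± 0.11, the ribonucleotide reductase subunit RnrL -3.86 ± 0.13 and DNA ligase 1 (DNAlig1) -2.70 ± 0.12. Cell cycle regulators had 19 of 24 genes higher in females, led by the mitotic cyclin CycB with 10317, 8366, 9932 and 10388 against 54.2, 78, 97.5 and 110.1, the largest female-higher difference among genes measured in both sexes at -6.89 ± 0.17 (adjusted p = 1.31e-07). Cdk2 gave -3.01 ± 0.13 and Cdk4 -2.38 ± 0.096. The piRNA pathway, which silences transposons in the germ line, had 16 of 19 genes higher in females and a median of -2.97. AGO3, one of its Argonaute proteins, read 1133, 986, 1178 and 1230.1 in females and 50, 72.9, 72 and 50.6 in males. The helicases spn-E and armi gave -3.39 ± 0.12 and -2.30 ± 0.11, and deadlock (del), which marks piRNA source loci, -2.97 ± 0.099.

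Among the other female-higher genes with a mean Signal of at least 75 in both sexes, eloF is an elongase that makes the long-chain hydrocarbons of the female cuticle in oenocytes. It read 6015, 4911, 5836 and 4783 in females and 62.4, 75.6, 89.2 and 90.2 in males, a difference of -6.09 ± 0.14 (adjusted p = 1e-07). The desaturase Fad2 of the same pheromone pathway read 12852, 12429, 13236 and 12141 in females against 31.3 to 60.9 in males, at least 169-fold above the floor. The others among the 10 largest were the DNA damage kinase gene lok at -4.43 ± 0.14, the meiosis regulator Marf1 at -4.46 ± 0.21, the cytochrome P450 Cyp6a19 at -4.46 ± 0.34, CG43134 at -4.86 ± 0.26, the ribosomal protein gene RpS5b and the transcription factor gene lola. The lola value of -5.04 ± 0.23 belongs to 1 of 14 probe sets. The other 13 ranged from -1.18 to 0.18, so the 14 probe sets of lola did not share this difference.

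Males were set apart by seminal fluid and sperm genes. The accessory gland list had 27 of 29 genes higher in males (16.9% of all genes were) and none higher in females, with a median difference of 8.93, or 5.99 with every Signal below 75 raised to 75. Its leading genes by Signal were all below 75 on the 4 female arrays. EbpII, a protein of the ejaculatory bulb, read 17225, 18440.5, 16444 and 19572 in males and 5.5, 1.3, 3.3 and 2 in females, and Ebp read 17222, 18074, 17613 and 19640.4 in males, at least 242-fold above the floor. Acp36DE, which is needed for sperm storage in the mated female, read 11782, 11326, 11766 and 16066 in males and 37.6, 28.4, 26.6 and 7.6 in females. On the second male array of line 2 this gene stood above the other 3, and so did Mst57Da (16803, 16844, 16770.1 and 19786), Sfp24Bb (12265, 12152, 11985 and 15875) and Acp63F (8840.5, 8714, 9017 and 11749). The 53C cluster genes Acp53C14a, Acp53C14b, Acp53C14c and Acp53Ea were at least 7.69, 7.40, 3.64 and 7.47 above the floor on the log2 scale, and Acp98AB at least 7.67. Acp26Aa, which stimulates ovulation, was at least 6.39 above it, and Acp26Ab, Acp29AB, Acp32CD and Acp76A lay between 4.48 and 5.99. Acp95EF was measured in both sexes, with 547, 541, 847 and 569.6 in males and 98.6, 119, 155 and 122 in females. The protease gene Sems and the homologue intr, both of the network that loads Sex Peptide onto sperm, were at least 3.93 and 2.18 above the floor. CG31226, of unknown role, read 11550.4, 12631, 12984 and 12588 in males. CG31226, Ebp and Sfp24Bb are not members of the accessory gland list.

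Of 42 spermatid and sperm genes tested 41 were higher in males (16.9% of all genes were) and 1 was not called. On all 42 genes the 4 males lay above the 4 females (2185 of all 9470 genes). Their median difference was 7.23, and 3.59 with every Signal below 75 raised to 75. The sperm tail genes Mst84Db and Mst84Dc read 8324, 7329, 8631 and 8252 (Mst84Db) and 10104, 9619, 10979.9 and 10615 (Mst84Dc) in males, with female ranges of 25.2 to 35.1 and 38.4 to 56.8. Among 14 spermatocyte regulators 8 passed the filter, and 4 of the 8 were higher in males. The meiotic translation factor boule (bol) read 1964, 1587, 2090.2 and 1738 in males and 124, 126, 119 and 54.5 in females on its brighter probe set, while the other bol probe set gave 0.039 ± 0.10 (adjusted p = 0.761). The homeodomain gene vis read 343, 314, 192 and 179.8 in males, and Rbp4, an RNA-binding protein of spermatocytes, 391, 471, 283 and 283, so that for both the 2 arrays of line 1 were above those of line 2. fest, another gene of this list, read 2979, 2276, 3757 and 2861 in males.

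Several male-higher genes are copies of genes of general use whose main copy was not called or was higher in females. Of 19 respiratory chain genes whose names end in L 16 were higher in males (16.9% of all genes were) and none in females. Their median difference was 4.35 (3.24 with Signals raised to 75). Most of the 19 are named as copies of another subunit gene. ND-MNLL, an ordinary complex I subunit, is among the 19 because its name also ends in L. None of the 52 tested genes of the list of the ordinary respiratory chain, which lacks ND-MNLL, was called, with a median of -0.10. For complex I, ND-51L1 read 261, 167, 274 and 235 in males and 5.9, 5.5, 6.2 and 6.1 in females, whereas ND-51 gave -0.065 ± 0.085 (adjusted p = 0.526). For complex IV, COX5BL read 1865, 1534, 1924 and 1788 in males and 25.9, 28.6, 51.9 and 25.7 in females, whereas COX5B gave -0.13 ± 0.14 (adjusted p = 0.416). ATPsynCF6L, of the ATP synthase, was at least 13.4-fold above the floor in males, and ATPsynCF6 gave -0.19 ± 0.14 (adjusted p = 0.268). ND-24L read 541, 485, 578 and 433 in males. The main copies named here, and the further pairs below, were chosen after their values were seen.

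Proteasome, chaperone, metabolic and ribosomal genes had copies of the same kind. Prosalpha6T read 840.4, 673, 884 and 667 in males and at most 5.3 in females, while Prosalpha6 gave -0.73 ± 0.12 and was not called (adjusted p = 0.00125). Prosbeta5R1 read 594, 503, 752 and 649 in males, while Prosbeta5 gave -0.53 ± 0.095 (adjusted p = 0.00181). The glycerol-3-phosphate dehydrogenase Gpdh3 read 2488, 1914, 2662 and 2199 in males and 87.7, 82.7, 107 and 90.4 in females, with -0.0019 ± 0.15 (adjusted p = 0.993) for the brightest of the 4 probe sets of Gpdh1. Of its other probe sets 1 was called higher in females, at -0.98 ± 0.11 (adjusted p = 0.000173), and 2 were not called, so the Gpdh1 probe sets did not share a call. Among 14 genes of heat shock proteins the call went to males for 5 and to females for 1. Over all genes tested 16.9% were called higher in males and 23.3% higher in females. Of the 14 differences 7 were above 0 and 7 below, with a median of 0.027. At an adjusted p below 0.05, 5 were higher in each sex. Hsp60C, a mitochondrial chaperone copy, read 5473, 3792, 5195 and 4256 in males and 19.3, 7, 3.9 and 13.8 in females, and Hsp60B, Hsp60D and Hsc70-2 were likewise below 75 in all females. The female-higher one was Hsp60A, the general copy, at -1.24 ± 0.12 (adjusted p = 6.06e-05). Of 34 ribosomal protein genes 4 were called higher in each sex, beside the same shares of 16.9% and 23.3% of all genes. Of the 34 differences 30 were below 0, with a median of -0.44. At an adjusted p below 0.05, 29 were higher in females and 4 in males, beside 4057 and 2377 of all 9470 genes. RpL10Aa read 1392, 1185, 1776 and 1639 in males and 19.6, 10.5, 6.7 and 6.1 in females, a difference of at least 4.30. RpS19b read 582, 591, 506 and 505 in males and 89.3, 38.8, 75.1 and 78 in females. RpS5b went the other way, with 12307, 12791, 13947 and 12266 in females and 674, 522, 401 and 432 in males, a difference of -4.69 ± 0.15 (adjusted p = 3.48e-07), and RpL34a gave -0.94 ± 0.082. The widely used RpL10Ab gave -0.44 ± 0.11 (adjusted p = 0.00807). Probes for near-identical copies can share signal, and the files do not give the probe sequences.

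The largest male-higher differences among genes measured in both sexes were those of CG33340 (7.52 ± 0.34), CG8701 (6.85 ± 0.13) and CG12861 (6.55 ± 0.19), none with a known role given in the sources used here. CG8701 read 10221, 8522, 9362 and 9304 in males and 94.9, 66.8, 79.9 and 84.9 in females. CR17567, CG17470, CG7768, CG8565 and CG1835 followed with differences of 4.32 to 6.08. Jhbp5 was uneven, since its females read 1175, 177, 595 and 911 while its males ranged from 10754 to 11259, a difference of 4.23 ± 0.54 (adjusted p = 0.000305).

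In lists outside the gonads and glands, the calls fell on a few genes each. Over all genes tested 16.9% were called higher in males and 23.3% higher in females. The list of genes known to differ between the sexes in fat body, oenocytes and head had 4 of 13 higher in males and 2 higher in females (Fad2 and eloF). Its male-higher members included sxe2, with 1651, 2228, 1558 and 1731 in males and 300.3, 348, 323 and 370.4 in females, and Obp99a, described below. Odorant-binding protein genes, several of which are expressed in the male reproductive tract, had 9 of 28 tested higher in males and 2 higher in females. Obp51a read 3705, 4714, 7542 and 9168 in males and at most 4.7 in females, and the males of line 2 were above those of line 1. Obp22a read 935, 847, 1155 and 1201 in males and Obp56g 12294, 13661, 12776 and 15238 against 921, 1354, 1009 and 1367 in females. Obp56e went the other way at -1.52 ± 0.18 (adjusted p = 0.00023).

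Detoxification genes gave few calls. Cytochrome P450 genes had 4 of 67 higher in each sex, with Cyp312a1 at 1994, 1803, 2087 and 2355 and Cyp4d21 at 416, 435, 532 and 499 in males, both genes below 75 in all females, and Cyp6v1 higher in females at -1.47 ± 0.13. Glutathione S transferases had 1 of 31 higher in males, GstD5 at 2.66 ± 0.42, and 2 higher in females, GstT1 at -0.50 ± 0.08 and GstT2 at -0.79 ± 0.097. UDP-glycosyltransferases had 2 of 24 in each direction. Ugt50B3 read 867, 1064, 2943 and 2732 in males and 103, 78.9, 151 and 127 in females, so that line 2 males were above line 1 males, and Ugt305A1 gave 2.56 ± 0.13. The female-higher pair was Ugt316A1 at -1.34 ± 0.15 and Ugt317A1 at -0.97 ± 0.14. Of 27 cuticle protein genes tested (80 on the array) Cpr51A and Cpr67Fb were higher in males, at 1.39 ± 0.11 and 2.17 ± 0.18.

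Antimicrobial peptide genes, which the fat body induces on infection, had 2 of 7 tested called, both higher in females, where 23.3% of all genes tested were. With 7 genes this count is near that share. Drosomycin (Drs) read 14910.4, 17918, 15422 and 13720.5 in females and 1767, 3229.9, 1277 and 1599 in males, a difference of -3.06 ± 0.22 (adjusted p = 1.68e-05). Defensin (Def) read 1200.4, 1585, 1066 and 703 in females and 170.3, 185, 108 and 164 in males, -2.83 ± 0.20 (adjusted p = 1.31e-05). Metchnikowin (Mtk) was uneven, with 4524, 10281, 3752 and 2059.6 in females and 1487, 2515, 2798 and 2556 in males, and the groups overlapped (adjusted p = 0.107). Among 13 clock genes Clk was higher in males at 1.24 ± 0.091 (adjusted p = 1.76e-05). Line 1 was above line 2 in both sexes, with 1073, 1132, 569.9 and 552 in males and 440.0, 441, 234 and 272 in females. Its dimer partner cyc and the kinase gene dco were higher in females at -1.35 ± 0.15 and -1.12 ± 0.10.

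Nerve, muscle and gut genes showed little. None of 25 neuronal and synaptic genes was called, yet 23 of the 25 differences were above 0, the median was 0.51, and 14 had an adjusted p below 0.05, all higher in males, where 6434 of all 9470 genes did and 2377 of those were higher in males. Snap25, of the vesicle fusion complex, read 3155, 3354, 3442 and 3306 in males and 2474, 2546, 1937 and 1787 in females, a difference of 0.62 ± 0.12 (adjusted p = 0.00273). The transmitter enzymes Gad1 and ChAT gave 0.59 ± 0.10 and 0.49 ± 0.097 (adjusted p = 0.00127 and 0.0028). The 11 aminergic genes tested had no call and a median of 0.21, with DopEcR, a dopamine and ecdysteroid receptor, at 0.49 ± 0.089 (adjusted p = 0.00181). Of 16 phototransduction genes 1 was called, inaE, whose 2 probe sets disagreed in sign (-0.96 ± 0.15 and 0.71 ± 0.10). No call was made among 23 muscle, 44 gut enzyme and 10 glycolysis genes, with medians of 0.10, -0.21 and -0.004. Respiratory and glycolysis medians changed sign with the scaling, to 0.006 and 0.056 after quantile normalization. The troponin gene TpnC41C read 10230.3, 7172, 9546 and 4403 in females and 10630.2, 8257, 10810.4 and 13263 in males, lowest on the second female array of line 2.

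**Figure D3:**
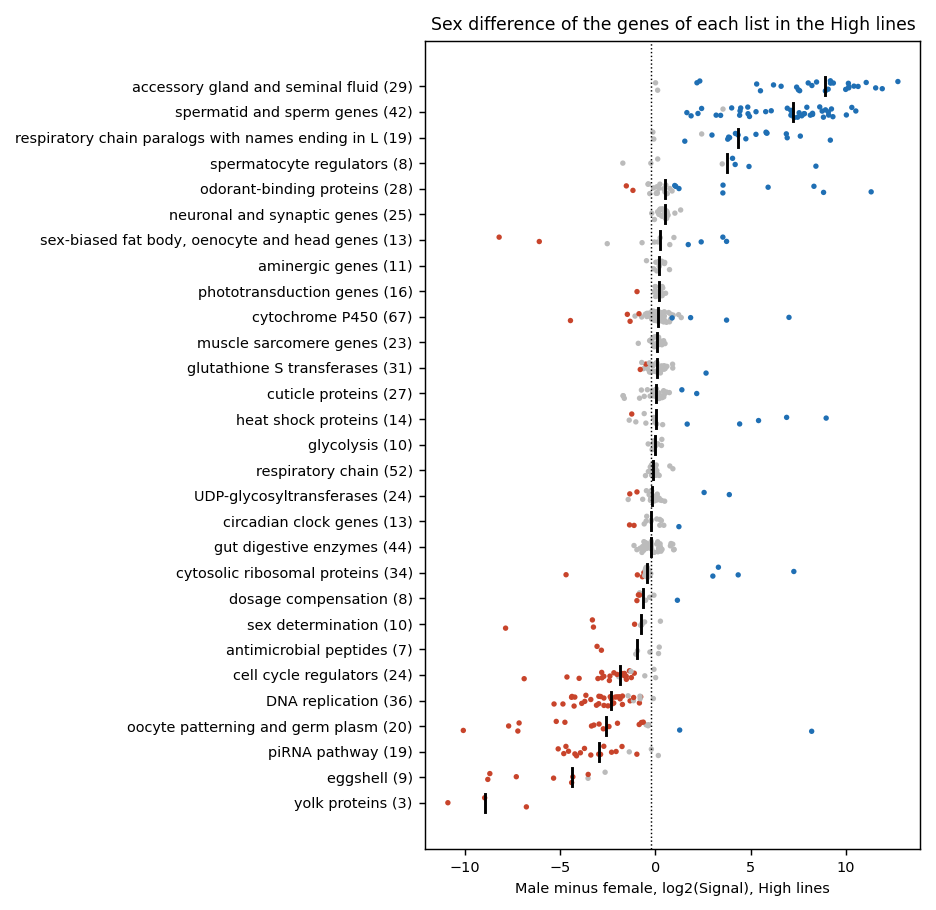
Male minus female difference in log2(Signal) in the High lines (x axis) for each tested gene of 29 gene lists (rows, number of genes tested in parentheses), blue where called higher in males, red where called higher in females, grey where not called; black bars are list medians and the dotted line is the median of all genes, -0.20. Yolk, eggshell, germ-line and replication lists lie to the left, sperm and accessory gland lists to the right, and nerve, muscle and metabolism lists near the dotted line.

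The shares of sex-biased genes differed between chromosomes. Of 1485 X-linked genes tested 187 (12.6%) were higher in males and 450 (30.3%) in females. On chromosomes 2 and 3 together the counts were 1406 (17.8%) and 1741 (22%) of 7897. The left arm of chromosome 2 had the highest share of male-higher genes of the 5 large arms, 377 of 1790 (21.1%). The median difference was -0.40 on the X and -0.18 on chromosomes 2 and 3. On chromosome 4 only 1 of 59 genes was higher in males and 12 in females (20.3%). A smaller share of X-linked genes was male-limited, 9.56% of the X-linked genes against 13.1% of those on chromosomes 2 and 3. The medians in the Control lines were -0.44 on the X and -0.20 on chromosomes 2 and 3, and in the Low lines -0.44 and -0.11. No test was made of these shares.

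The High pattern was then set beside that of the other selection groups. The same fit called 4736 probe sets in the Control lines (41.4%) and 5387 in the Low lines (47.1%). Of the 1770 male-higher probe sets in High, 1644 were called male-higher in Control and 1677 in Low, and of the 2537 female-higher ones 2239 and 2344 were called in the same direction. None was called in the opposite direction, and 1 female-higher probe set had the opposite sign in Control or Low. Whether a sex difference itself differed was tested in 1 fit of all 24 arrays, as the High difference minus that of the other group, at an adjusted p below 0.05. High minus the mean of Control and Low was called for 10 probe sets (0.0874%), 7 above 0 and 3 below, and 868 had an unadjusted p below 0.05. High minus Control gave 13 (0.114%), 6 above 0 and 7 below, and High minus Low 63 (0.551%), 43 above 0 and 20 below. The directions depend on the scaling, since the splits became 9 and 12, 2 and 9, and 31 and 30 after quantile normalization and 7 and 9, 6 and 7, and 21 and 33 after centring each array on its median. That centring moved the median sex difference of the Low lines from -0.15 to 0.031. Both contrasts use the same High arrays and are given side by side. With limma on the 6 line differences as the samples none was called in any of the 3 contrasts, where 514, 419 and 869 probe sets had an unadjusted p below 0.05. The calls therefore take arrays, not lines, as replicates. Of the 10 probe sets 4 had both High lines outside the range of the other 4 lines, which held for 9.87% of all tested probe sets. The 10 were picked by this same contrast, so the 4 are no separate support.

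Obp99a, an odorant-binding protein gene also expressed in the fat body, was called for High minus the other groups, at 1.76 ± 0.19 (adjusted p = 0.00139). In High flies it read 2579, 2525, 2547 and 2699.7 in males and 209.6, 241, 192 and 248 in females, a male excess of 3.55 ± 0.11 (adjusted p = 3.01e-07). The difference was 3.51 and 3.59 in High lines 1 and 2, 3.83 and 2.43 in the Control lines and 0.32 and 0.58 in the Low lines. High minus Low was 3.10 ± 0.22 (adjusted p = 6.2e-06), while High minus Control was 0.42 ± 0.22 (adjusted p = 0.828). The mean Signal in females was 223 in High, 312 in Control and 1377 in Low females, against 2588, 2467 and 1871 in males.

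CG15394 went the other way, with a smaller male excess in High flies. It read 3106, 3213, 2787 and 3086 in High males and 849.6, 951, 274 and 241 in High females, and High minus the other groups was -1.22 ± 0.17 (adjusted p = 0.012). High line 1 lay below the other 5 lines at 1.81 and 3.51 for the 2 High lines, against 3.32 and 4.04 in Control and 3.94 and 4.22 in Low. CG3823 was higher in High females, at 448, 449.8, 482 and 445 against 267, 274, 249 and 295 in males, and High minus the other groups was -0.54 ± 0.09 (adjusted p = 0.0375). The Control lines gave -0.95 and -0.45 and the Low lines 0.071 and 0.48, so the contrast was with Low, at -1.03 ± 0.10 (adjusted p = 0.000395). cutlet was called against both groups, with a sex difference of -0.98 ± 0.26 in High (adjusted p = 0.0116), -2.25 in Control and -2.41 in Low. Its High males read 150, 124, 75.5 and 75.1, so line 1 was above line 2, and the mean of Control males was 45.4, below the floor. With Signals below 75 raised to 75 cutlet gave 0.70 (adjusted p = 0.00972) for High minus the other groups and 0.47 (adjusted p = 0.258) for High minus Control.

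The other named calls for High minus the other groups rest on mean Signals below 75 in 1 sex. CG42855, called against both groups, had a male excess of 7.01 ± 0.25 in High and 4.64 and 4.78 in Control and Low. Its male means were 1685, 1764 and 1719, and its female means, all below the floor, were 13.7, 71.1 and 67.4. With Signals below 75 raised to 75 its High minus Control value became -0.046. For CG17349 the females of High line 1 were the lowest, at 6 and 8.2. CG12470, below 75 in all High females and at least 5.59 above the floor in males, gave 4.45 in Low line 1 and 10.14 to 11.35 in the other 5 lines. It had the smallest p for High minus the other groups (adjusted p = 6.41e-05), but with Signals raised to 75 that value was 0.24 (adjusted p = 0.259). CG6927 read 637, 429, 652 and 823 in High females and at most 32.8 in males. With Signals raised to 75 neither CG42855, CG17349 nor CG6927 was called for High minus the other groups, at 0.043, 0.066 and 0.20. The 2 remaining probe sets have no single gene symbol.

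Against Control alone, 1 of the 13 called probe sets had a mean Signal of at least 75 in both sexes of both groups. This was CG31704, with 5029.7, 4325, 4240.4 and 4453 in High males and 582, 686, 607 and 576 in High females, a male excess of 2.88 ± 0.097 against 1.80 in Control, and High minus Control was 1.08 ± 0.18 (adjusted p = 0.0419). Control line 1 gave 1.17 and line 2 2.43. The BMP receptor gene tkv had a larger female excess in High, -2.23 ± 0.21 against -0.70 in Control, with female Signals of 209.9 to 391 in High and 75.7 to 294 in Control. High minus Control was -1.54 ± 0.26 (adjusted p = 0.0398) for this probe set of tkv, whose High males were below 75. The other tkv probe set gave 0.10 ± 0.12 (adjusted p = 0.936). The testis thioredoxin TrxT read 6441, 5716, 7109 and 6214 in High males, and High minus Control was 2.70 ± 0.41 (adjusted p = 0.0278), with female means of 3.55 in High and 22.1 in Control, both below the floor. eIF3f2, a copy of an initiation factor subunit gene, had a smaller male excess in High, 2.76 ± 0.25 against 3.83. High minus Control for eIF3f2 was -1.07 ± 0.14 (adjusted p = 0.0126), and its females were below 75. With Signals raised to 75 High minus Control was 0.086 (adjusted p = 0.891) for TrxT and -0.16 (adjusted p = 0.768) for eIF3f2. The general copy eIF3f1 gave -0.66 ± 0.10 (adjusted p = 0.000878) in High.

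Against Low, 37 of the 63 called probe sets had a mean Signal of at least 75 in both sexes of both groups. On 60 of the 63 the sex differences of both High lines were above, or both below, those of both Low lines. The 63 were picked by this same contrast, and the share over all tested probe sets was not counted, so the 60 is no separate support. The most frequent kind was a smaller female excess in High, 33 of the 63, against 1 with a larger one. The male excess was smaller in High for 13 and larger for 8, and 8 had opposite signs in the 2 groups. These kinds depend on the scaling, since the calls above and below 0, here 43 and 20, became 31 and 30 after quantile normalization. After centring each array on its median they became 21 and 33. The kinds were not counted over all tested probe sets. Several of the 33 are genes of DNA replication and division. The clamp loader subunit gene RfC3 read 337, 316, 442 and 456 in High females and 452 to 711 in Low females, with 100.4 to 113 and 72 to 113 in the males of High and Low. High minus Low was 0.75 ± 0.12 (adjusted p = 0.0188). The spindle checkpoint gene mad2 read 498, 366, 589 and 684 in High females and 635 to 1006 in Low females, and High minus Low was 0.98 ± 0.17 (adjusted p = 0.0192). The primase subunit gene Prim1 gave 0.86 ± 0.17 (adjusted p = 0.0421), with High males from 64.3 to 75.8.

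Other genes of this kind were the translational repressor pum at 0.71 ± 0.13 (adjusted p = 0.0268) and the importin gene Fs(2)Ket at 1.08 ± 0.20 (adjusted p = 0.0292). Each has a second probe set, not called for High minus Low, which gave -0.034 ± 0.14 (adjusted p = 0.941) for pum and -0.075 ± 0.11 (adjusted p = 0.792) for Fs(2)Ket. In High flies the second pum probe set had a sex difference of -0.0082 ± 0.12 (adjusted p = 0.959). The mRNA decay factor LSm1 followed at 0.48 ± 0.099 (adjusted p = 0.0435) and the Jun transcription factor gene Jra at 0.59 ± 0.11 (adjusted p = 0.0374). For LSm1 the High lines gave -0.74 and -0.75, the Control lines -1.09 and -1.09 and the Low lines -1.18 and -1.28, so both High lines lay above the other 4. For mad2 the High lines gave -1.31 and -1.94, the Control lines -1.29 and -1.61 and the Low lines -2.48 and -2.74, and for RfC3 they gave -1.55 and -2.15, -1.86 and -1.90 and -2.57 and -2.64.

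Gld, fon and GstD9 had a mean Signal above 75 in both sexes of both groups. Glucose dehydrogenase (Gld), made in the male ejaculatory duct, had a male excess of 2.19 ± 0.23 in High and 3.59 in Low. Its males read 792, 747, 594 and 1088 in High and 1505 to 2006 in Low, with 142 to 237 and 123 to 166 in the females of High and Low. High minus Low was -1.40 ± 0.26 (adjusted p = 0.0307), and the mean of Control males was 773. The clotting protein gene fon gave -0.14 ± 0.084 in High and 0.59 in Low, and High minus Low was -0.74 ± 0.12 (adjusted p = 0.0192). GstD9 gave 0.63 and 1.18 for High and -0.12 and -0.20 for Low, with 1128, 1244, 2629.7 and 3244 in High males and 369 to 914 in Low males, and High minus Low was 1.06 ± 0.18 (adjusted p = 0.0234). The immunoglobulin-domain gene dpr17 and the complex I copy ND-20L had smaller male excesses in High, at -1.77 ± 0.18 (adjusted p = 0.000426) and -1.79 ± 0.33 (adjusted p = 0.0307), and both had mean female Signals below 75 in the Low lines. With Signals raised to 75 neither was called, at -0.30 and -0.37.

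**Figure D4:**
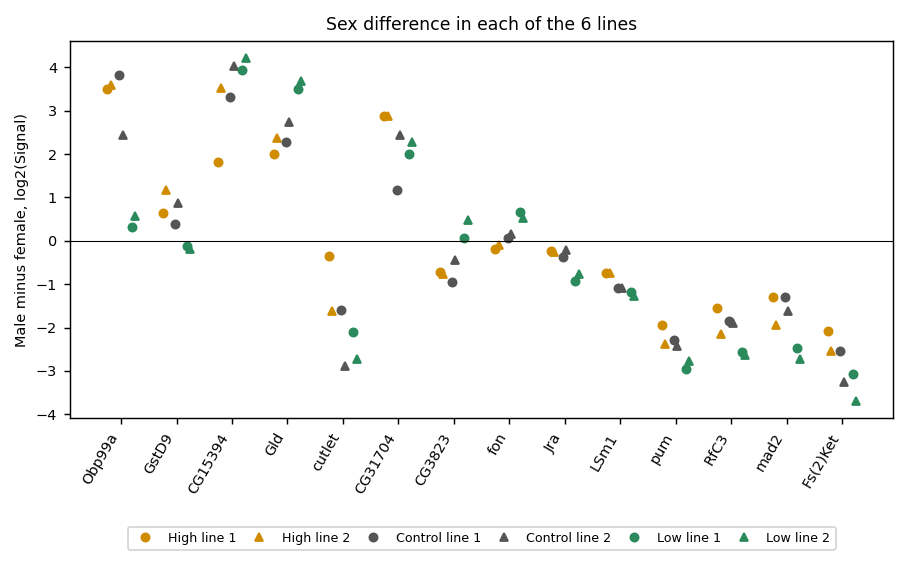
Male minus female difference in log2(Signal) (y axis) in each of the 6 lines for 14 genes with a called difference between High and another group, High in orange, Control in grey and Low in green, circles for line 1 and triangles for line 2. Obp99a lies above 3 in both High lines and below 1 in both Low lines, and for mad2, RfC3 and LSm1 both High lines are above both Low lines.

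Most genes of some lists lay on 1 side when High was set against Low, though few of them passed the test. For DNA replication the median difference was -2.34 in High, -2.25 in Control and -2.86 in Low, and the High value was above the Low value for 35 of 36 genes, 2 of them called. Over all genes tested it was above for 5070 of 9470, and the High value was above the Control value for 4939 of 9470. Cell cycle regulators had medians of -1.85, -1.68 and -2.47, with High above Low for 24 of 24 genes, 1 of them called. Under quantile normalization and under centring these counts were 34 and 33 of 36 and 22 and 22 of 24. In females the DNA replication genes had a median High to Low log2 ratio of -0.49 and in males 0.038, beside -0.031 and 0.0099 for all genes. Muscle genes lay on the other side, with medians of 0.10 in High, -0.17 in Control and 0.36 in Low. The respiratory chain gave -0.10, -0.30 and 0.056. For muscle the High minus Low value was above 0 for none of 23 genes and the High minus Control value for all 23, and for the respiratory chain the counts were 2 and 51 of 52. None of these muscle and respiratory genes was called in either contrast, and all 4 counts kept their side under both other scalings. The 2 High lines were apart as well, since the muscle median was -0.12 in High line 1 and 0.33 in High line 2. Genes of a list share their arrays and are not independent. The eggshell list, a marker of the ovary, had medians of -4.39, -4.49 and -6.13 in High, Control and Low, and its part in these values was not tested.

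**Figure D5:**
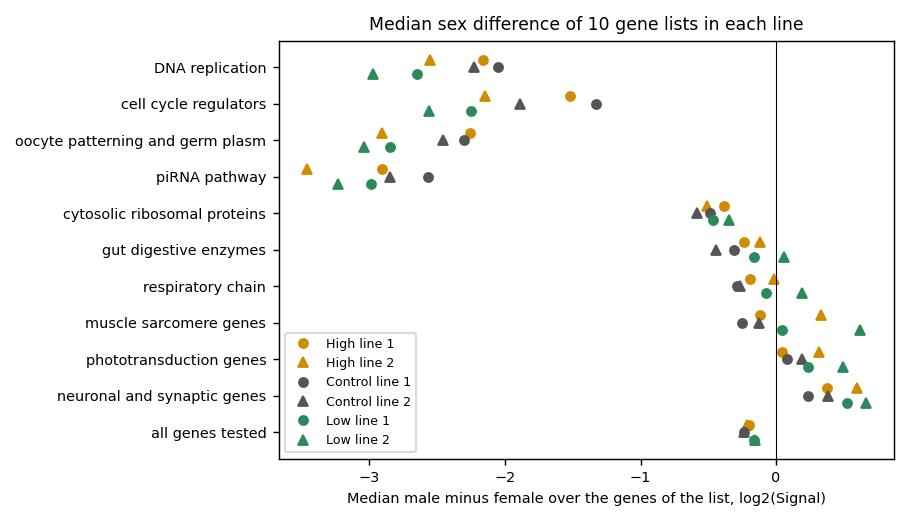
Median male minus female difference in log2(Signal) (x axis) over the tested genes of 10 lists and over all genes (rows) in each of the 6 lines, High in orange, Control in grey and Low in green, circles for line 1 and triangles for line 2. For DNA replication both Low lines are to the left of both High lines, and for muscle High line 1 lies near the Control lines while High line 2 lies between the 2 Low lines.

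Few sex differences differed between the 2 High lines. High line 1 minus line 2 was called for 20 of 11439 probe sets (0.175%), 15 above 0 and 5 below (10 and 8 after quantile normalization), and the median absolute difference between the lines was 0.26 over all tested probe sets. In 8 of the 20 the mean High Signal reached 75 in both sexes. CG13947 differed in level between the lines and in its sex difference, with 1633, 1712, 376 and 319.5 in males and 1916, 917, 26.7 and 14.6 in females, and line 1 minus line 2 was -3.80 ± 0.51 (adjusted p = 0.00533). The females of line 2 were below the floor, and with Signals raised to 75 the value was -1.87 (adjusted p = 0.0792). CG3408 read 523, 481, 164 and 125 in males and 593, 466, 651 and 645 in females, so the males of line 2 were lower, and line 1 minus line 2 was 2.11 ± 0.28 (adjusted p = 0.00533). CG14691 read 3.3, 3.2, 288 and 275 in females and 236, 204, 519.5 and 533 in males, so the females of line 1 were far below the floor. Line 1 minus line 2 was 5.17 ± 0.60 (adjusted p = 0.00285) as fitted and 0.65 (adjusted p = 0.113) with Signals raised to 75, no longer a call, and the sex difference of the 2 Control lines was 6.28 and 0.93. CG17349, CG13725, CG1571, CG4669 and boil had males well above 75 and females below it in both lines, so their line differences, from -3.12 to 4.40, rest on female Signals below the floor. Leaving out line 1 female replicate 1 raised the count from 20 to 102, and that of High minus Low from 63 to 164. The sex difference of eIF3f2 also differed between the lines, by 1.19 ± 0.20 (adjusted p = 0.0226), or 0.23 (adjusted p = 0.523) with Signals raised to 75.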

How the data were processed

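Per the labels and the study's methods, the authors extracted total RNA of pooled virgin flies with Trizol, hybridised labelled cRNA to Affymetrix Drosophila GeneChip 2.0 arrays and computed the MAS5 Signal, a linear probe-set intensity from perfect-match and mismatch probes, scaled to a common target on every array. The deposited table holds these intensity values for 24 arrays and 18769 probe sets; 13646 carry 1 gene symbol, 402 several and 4721 none in the platform annotation, and a gene with several probe sets is given by the one of highest mean Signal. The deposited values carry no counts, so the number of arrays limits the precision.

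Signals were taken to log2 without a pseudocount and fitted with limma 3.58.1 in R 4.3.3 (lmFit, eBayes), after probe sets whose Signal had a 24-array median below 75 were left out. The sex difference used the 8 arrays of a group with line as a covariate (adjusted p below 0.001), and its differences between groups and between the High lines used all 24 arrays with 1 mean for each sex of each line (adjusted p below 0.05), with Benjamini-Hochberg adjustment. Genes are named by rank among sex-limited, two-sided and between-group calls and by rank within 29 lists of tissues and pathways; main copies of paralogs were chosen after their values were seen. The members and lists were chosen with earlier results of these data known. Fits were tested on simulated data. Alternatives were a pseudocount of 50, quantile normalization, median centring, filters of 50 and 150 or none, a filter on High arrays, linear Signal (the scale of the methods), other thresholds, a replicate block, line differences as samples and leaving out arrays or lines. Raising Signals below 75 to 75 was added after seeing the data. Same-numbered male and female replicates of a line did not deviate together (correlations of -0.026 to 0.059).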

Additional observations from a re-analysis of the deposited data

Results flagged for a closer look

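In 11 of 261 sets of 4 arrays examined, 1 array of a named gene stood apart from the other 3, with a gap to its neighbour over 0.829 of the range; chance alone flags about 1 set in 20. The second male array of line 2 was the high one for 4 seminal fluid genes, Acp36DE (0.904), Acp63F (0.9), Mst57Da (0.975) and Sfp24Bb (0.928), where the number is the gap as a share of the range. For Acp95EF the first male array of line 2 was high (0.905) and for Jhbp5 the second male array of line 1 (0.86). The second female array of line 2 was the low one for COX5B (0.83), Gpdh1 (0.84) and bol (0.901). The high female arrays for CG3823 (0.874) and osk (0.849) were above the others by little in Signal.

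44 tests of named genes found that a sex difference (log2, male minus female) differed between groups or lines. For High minus the other groups the values were 1.74 for CG12470, -1.22 for CG15394, 1.21 for CG17349, -0.54 for CG3823, 2.30 for CG42855, 1.98 for CG6927, 1.76 for Obp99a and 1.35 for cutlet. For High minus Control they were 1.08 for CG31704, 2.38 for CG42855, 2.70 for TrxT, 1.27 for cutlet, -1.07 for eIF3f2 and -1.54 for tkv. For High minus Low they were 3.08 for CG12470, -1.42 for CG15394, 1.31 for CG17349, -1.03 for CG3823, 2.23 for CG42855, 2.69 for CG6927, 1.08 for Fs(2)Ket, -1.40 for Gld, 1.06 for GstD9, 0.59 for Jra, 0.48 for LSm1, -1.79 for ND-20L, 3.10 for Obp99a, 0.86 for Prim1, 0.75 for RfC3, 1.43 for cutlet, -1.77 for dpr17, -0.74 for fon, 0.98 for mad2 and 0.71 for pum. For High line 1 minus High line 2 they were 4.40 for CG13725, -3.80 for CG13947, 5.17 for CG14691, -1.70 for CG15394, 2.92 for CG1571, 2.91 for CG17349, 2.11 for CG3408, -3.12 for CG4669, -3.05 for boil and 1.19 for eIF3f2. Of these genes TrxT, eIF3f2, CG42855, CG17349, CG12470, ND-20L, CG13725, CG1571, CG4669 and boil had a mean Signal below 75 in High females, as CG6927, tkv and Prim1 had in High males.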

How the results depend on the processing

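No called sex difference of a named gene in the High lines reversed under the settings run, and the count of 4307 calls became 7541 at an adjusted p below 0.05, 2815 with linear Signal as in the methods, 2748 with a replicate block, and 1310 or 1007 without line 1 or line 2. Leaving out 1 array gave 3032 to 3705. In the Control lines the count of 4736 became 7848 at 0.05 and 1049 or 1202 without line 1 or 2 (3444 to 3862 without 1 array), and in the Low lines 5387 became 8403 and 1501 or 1304 (4361 to 4819).

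High minus the other groups, 10 calls, gave 1 at an adjusted p below 0.001, 24 with a pseudocount of 50, 21 after quantile normalization, 16 after median centring, 116 with linear Signal, 43 with Signals raised to 75, 0 with line differences as samples, 18 without High line 2, 6 without Low line 2, 17 without Control line 1, and 4 to 26 without 1 array. High minus Control, 13 calls, gave 0 at 0.001, 1 with no filter, 56 with linear Signal, 26 with Signals raised to 75, 0 with line differences and 1 to 20 without 1 array. High minus Low, 63 calls, gave 5 at 0.001, 130 with a pseudocount of 50, 32 with no filter, 616 with linear Signal, 249 with Signals raised to 75, 0 with line differences, 21 or 118 without High line 1 or 2, 19 or 16 without Low line 1 or 2, and 11 to 164 without 1 array. High line 1 minus line 2, 20 calls, gave 0 at 0.001, 40 with linear Signal, 31 with Signals raised to 75 and 11 to 102 without 1 array. The cause of these changes was not tested.

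The replicate numbers share no more than a number, and the block gave 3, 0, 6 and 0 calls in these 4 contrasts in the same order. Linear Signal reversed CG14691 (-28.1) and CG17349 (-82.7) between the High lines, boil there (61.7), CG15394 (166) and CG42855 (-1.36) for High minus the other groups, CG42855 (-22.2) for High minus Control and dpr17 (18.8) for High minus Low, all in Signal units. Leaving out High line 1 reversed CG17349 (-0.25 for High minus the other groups, -0.15 for High minus Low), and leaving out Low line 1 reversed CG12470 (-0.37 for High minus Low). With Signals raised to 75, CG17349 (-0.13) and boil (0.25) reversed between the High lines and CG42855 (-0.046) for High minus Control. Below a Signal of 75 the data limit what can be said of a level, and with 2 lines a group no difference between groups was called with lines as samples.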

Other observations

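Several genes that the lists hold but the account above does not name were not called between the sexes of the High lines. The immune peptide gene Drsl5 read 3177, 3314, 3476 and 3345 in males and 3009, 2933, 2944 and 2958 in females, so that, unlike Drs, it gave 0.17 ± 0.077 (adjusted p = 0.0914). The synapsin gene Syn read 1002, 909.7, 1007 and 852 in males and 685, 748, 536 and 552 in females, with no overlap and 0.59 ± 0.11 (adjusted p = 0.00258), short of the threshold. The mitochondrial complex III gene UQCR-Q had no overlap either, at 0.92 ± 0.18 (adjusted p = 0.00275), and its lowest array was the second female array of line 2. The lysozyme gene LysP was higher on all 4 female arrays, 2097, 2613, 1921 and 1930.2 against 1278, 1285, 1313 and 1468, with -0.67 ± 0.12 (adjusted p = 0.00206).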
